A study of Mus musculus with 23 samples.

Results

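This comparison set germinal vesicle (GV) oocytes of 3-week female mice carrying a Zp3-Cre deletion of Cxxc1 against GV oocytes of wild-type females of the same age, with 3 libraries of bulk RNA in each group. Its members were all genes that reached 1 FPKM in 2 or more of these 6 libraries, which were 11585 of the 24506 entries of the deposited table. FPKM counts sequenced fragments per length of transcript and per total of mapped fragments, so it corrects for gene length and is relative to the total of its own library. The deletion females are labelled Cxxc1fl/fl;Zp3-Cre, and the labels give no strain, floxed allele or Cre for the wild-type females. Zp3-Cre is driven by the promoter of a zona pellucida gene that is active in growing oocytes, so the gene is removed after growth has begun, and RNA or protein made earlier can persist. The same series supplied GV oocytes of 3-month females, wild-type or Cxxc1fl/fl;Gdf9-Cre. It also supplied zygotes sired by wild-type males in wild-type or Cxxc1fl/fl;Zp3-Cre females. These groups had 3 libraries each. Libraries of 2-cell embryos from the same kinds of parents as the zygotes entered the model fit but are not described here. Nothing in the labels ties a library to an animal of its own, so the p-values measure a spread between libraries that may be technical. In bulk RNA, fewer cells of a kind and less RNA per cell cannot be told apart.

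Cxxc1 encodes CFP1, a protein with a CXXC zinc finger that binds DNA at unmethylated CpG and is a subunit of the SETD1 complexes. These complexes place trimethyl marks on lysine 4 of histone H3 (H3K4), a mark found at promoters of active genes and above all at promoters rich in CpG. Growing oocytes build up the RNA store that carries them through meiotic maturation and the first days of the embryo, and transcription then stops until the embryo switches on its own genome.

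The targeted gene was low in the libraries labelled as deleted. Wild-type libraries held Cxxc1 at 39.9, 37.9 and 41.5 FPKM, and after deletion the values were 0.893, 1.02 and 1.49 FPKM, a log2 change of -4.27 ± 0.26 (adjusted p = 8.88e-10). Here and below ± gives the SE of the fitted change on the log2(FPKM + 1) scale. Exons outside the deleted part can still add reads to the FPKM of the gene. The 6 libraries had FPKM totals of 388821 to 403583, and their read depth is unknown because FPKM carries no counts. Genes at 1 FPKM or more numbered 10689 to 10719 in the wild-type group and from 11101 to 11226 in the deletion group. The correlation of log2(FPKM + 1) across genes was at least 0.9895 between wild-type libraries, at least 0.9787 between deletion libraries and at most 0.9606 between the groups. Oocyte transcripts were high in all 6 libraries: Gdf9, a growth factor secreted by oocytes, was at 1753 to 2724 FPKM and Nobox, an oocyte transcription factor, at 244 to 308 FPKM. Markers of granulosa cells, which surround the oocyte, summed to 167 to 186 FPKM in wild-type oocytes and 169 to 184 FPKM after deletion over 26 genes, of which 14 were members. Inha, Nr5a2 and Cyp19a1 of this list were present at 15 to 23.1, 12.3 to 16.8 and 8.24 to 19 FPKM, Fshr and Foxl2 stayed below 1 FPKM, and Ptx3 and Tnfaip6, which cumulus cells induce when they expand, were listed at 0 in every library. Much of the granulosa sum came from genes of the list that are not named here. Markers of theca and stroma summed to 13.1 to 14.5 FPKM in wild-type oocytes and 19 to 23.4 FPKM after deletion over 16 genes, and markers of blood, immune and endothelial cells to 57.0 to 59.6 and 45.2 to 50.6 FPKM over 23 genes. Cyp19a1 and Krt8 of the granulosa list were called higher, by 0.65 and 1.95 on the log2 scale, and Krt8 lost its call in 1 of 15 alternatives. Of the 7 members on the blood, immune and endothelial list Tek, Kdr and Cd68 rose and Tie1 and Pecam1 fell. Pecam1, an endothelial adhesion gene, was at 24.4, 24.3 and 23.8 FPKM in wild-type oocytes and 15, 15.9 and 14.5 after deletion (log2 change -0.64), and Cd68, a macrophage gene, at 1.04, 0.76 and 1.25 and 2.95, 3.5 and 3.93 (1.15, a call lost in 1 of 15 alternatives). Kdr, an endothelial receptor, was at 0.734, 0.8 and 0.554 and 2.34, 2.61 and 2.29 FPKM (1.01). Within the stroma list Dcn, a collagen-binding proteoglycan, was at 0.383, 0.331 and 0.0914 FPKM in wild-type oocytes and 3.35, 4.08 and 3.98 FPKM after deletion, and the part of these markers in the results below was not tested.

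After deletion of Cxxc1 a large share of the oocyte transcriptome differed, mostly by less than 2-fold. A linear model of log2(FPKM + 1) was fitted with limma to all 23 libraries of the series, zygotes and 2-cell embryos included. The spread behind each SE and p-value is thus shared with embryos. A gene was called at an adjusted p under 0.05 over all genes fitted. After deletion 2393 members were higher (20.7% of all members) and 1537 were lower (13.3%). With only the 12 GV oocyte libraries fitted, 3502 were higher and 2145 lower. Changes of at least 2-fold on this scale were made by 411 of the genes that rose (3.55% of all members) and 270 of those that fell (2.33%), and changes of at least 4-fold by 43 and 19. The median log2 change over all members was 0.10, and the middle 90% of genes lay between -0.75 and 0.90. The scale understates the change of genes at low FPKM, because 1 is added to each value. The libraries of the 2 groups did not overlap in 6525 members (56.3%). Separate groups, reported for single genes below, are therefore the usual state of a member.

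The balance of rises and falls depended on how the libraries were scaled. Rises made up 60.9% of the calls with FPKM as deposited, 45.1% after median-of-ratios scaling (1502 higher and 1826 lower) and 48.3% after quantile normalization (1715 and 1834). These scalings moved the log2 change of a typical gene by -0.10 and -0.07. They centre the libraries on one another and so cannot settle whether deletion oocytes held more or less RNA. Fold changes below are with FPKM as deposited, and many list counts are also given under median-of-ratios scaling. After the counts of a list, brackets give the range of rises and of falls over 15 alternative analyses, and then the counts without each library whose omission moved a count of 4 or more by over 1.5 times. A share of a list near 20.7% for rises or 13.3% for falls is no more than that of all members.

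**Figure D1:**
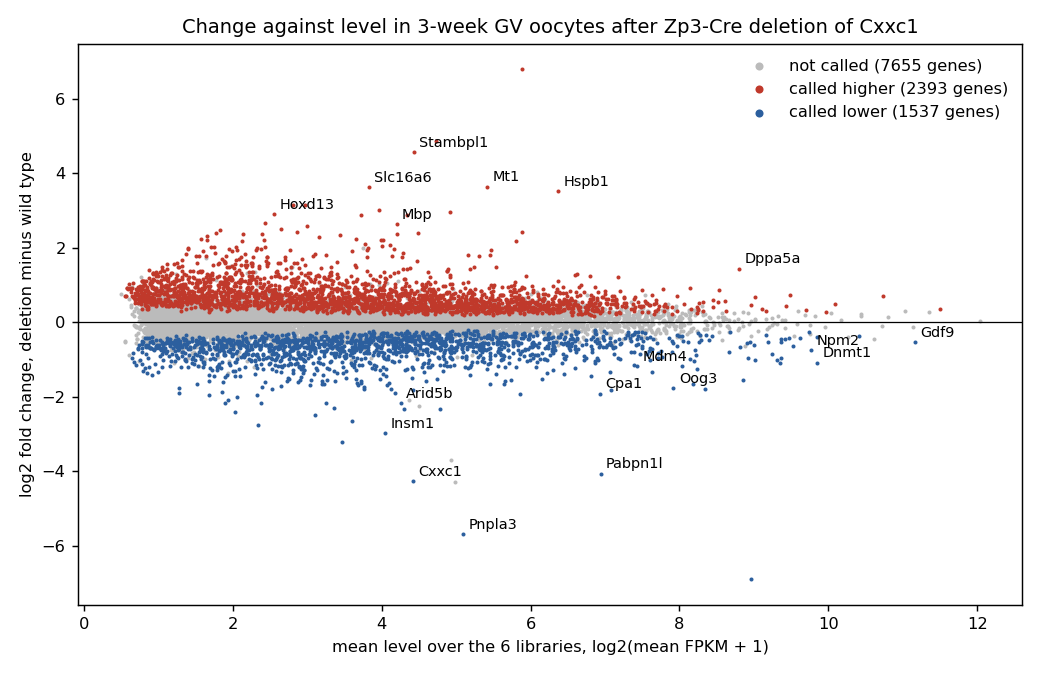
Log2 change of each of the 11585 genes (vertical axis, deletion minus wild type) against its mean level over the 6 libraries (horizontal axis, log2 scale). Red points are the 2393 genes called higher and blue points the 1537 called lower; Cxxc1, Pabpn1l and Pnpla3 are among the lowest points, and the 2 unlabelled points beyond 6 are short noncoding RNAs.

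The share of genes called varied with how abundant they are in oocytes. To avoid sorting genes by the samples compared, members were grouped by their level in wild-type oocytes of 3-month females. Of 774 members at 100 FPKM or more there, 187 fell (24.2%) and 109 rose (14.1%). Of 5007 members at 10 to 100 FPKM, 776 fell (15.5%) and 1017 rose (20.3%), and of 4711 at 1 to 10 FPKM, 540 fell (11.5%) and 900 rose. Of 1093 members below 1 FPKM, 34 fell (3.11%) and 367 rose (33.6%), but this last count is partly fixed by the filter. Members that reached 1 FPKM in at least 2 libraries of the deletion group alone numbered 795, of which 388 were called higher, and those that did so in the wild-type group alone numbered 352, of which 147 were called lower. Genes named below that stayed under 1 FPKM in at least 2 wild-type libraries and rose are of the first kind.

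Of the 20 most abundant transcripts 13 did not pass the test, 4 rose and 3 fell. These counts are near the shares of all members, of which 20.7% rose and 13.3% fell. The 20 most abundant genes made up 8.86% to 9.01% of the summed FPKM of the wild-type libraries and 8.82% to 8.99% of that of the deletion libraries. The most abundant was Zbed3, which encodes a component of the maternal complex under the oocyte cortex, at 4117, 4116 and 4130.3 FPKM in wild-type oocytes and 4558, 4139 and 4053 FPKM after deletion, with a log2 change of 0.04 ± 0.10 (adjusted p = 0.817). Uchl1, an oocyte deubiquitinase, was at 2380.0, 2336 and 2336 and 2151, 2184 and 2126 FPKM (adjusted p = 0.437), and H1foo, the oocyte linker histone, at 1806, 1691 and 1757 and 1574, 1748 and 1571 FPKM (adjusted p = 0.486). The groups overlapped for Zbed3 and H1foo but not for Uchl1, whose difference was small. Gdf9 fell from 2724, 2679.8 and 2706 to 1955, 1923 and 1753 FPKM, a log2 change of -0.53 ± 0.08 (adjusted p = 6.92e-05). Zar1, an RNA-binding maternal effect gene, fell by 0.37 on the log2 scale, and its call was lost in 1 of 15 alternative analyses. Tle6, another gene of the cortical complex, fell by 0.40, a call lost in 4 of 15. Ldhb, the lactate dehydrogenase subunit that dominates in oocytes, rose from 2599, 2486 and 2575 to 3114, 3313 and 3357 FPKM (adjusted p = 0.00247), a call lost in 1 of 15.

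Among the largest falls, Pabpn1l stood out by its abundance. Pabpn1l encodes an oocyte poly(A)-binding protein and was at 217, 228 and 247 FPKM in wild-type oocytes and 14.1, 14.1 and 10.8 FPKM after deletion, a log2 change of -4.06 ± 0.19 (adjusted p = 6.51e-11). Gpx6, a glutathione peroxidase gene, went from 17, 16.5 and 14.6 to 2.19, 2.75 and 2.39 FPKM (log2 change -2.30 ± 0.19, adjusted p = 4.8e-08). Cpa1, named for a digestive carboxypeptidase, was high in these oocytes and went from 187, 201 and 187 to 51.6, 60.7 and 40.8 FPKM (log2 change -1.91 ± 0.13, adjusted p = 2.76e-09). In each of these genes the deletion libraries lay far below the wild-type libraries, but the rule for naming the largest falls required groups without overlap. Taok3, a kinase gene, fell from 28.1, 27.2 and 27.5 to 6.4, 8.01 and 5.79 FPKM, Coro2b, an actin-binding coronin, from 30.3, 33.2 and 33.2 to 9.33, 6.26 and 10.5, and Ptpre, a receptor tyrosine phosphatase, from 12.1, 11.2 and 11.2 to 2.52, 3.24 and 2.97. The extracellular proteins Olfm1 and Myoc fell by 1.72 and 1.70 on the log2 scale. Stk36 and the surface antigen Cd7 fell with unequal deletion libraries: Stk36 was at 90.4, 86.6 and 91.8 FPKM in wild-type oocytes and 27.5, 33.6 and 12.9 after deletion, and Cd7 at 73.2, 67.9 and 79.1 and 27.3, 32.6 and 12.5. Kcnk18, a potassium channel gene, went from 26.4, 23.3 and 24.2 to 6.81, 6.99 and 7.04 FPKM.

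Only 6 members went from a mean of at least 5 FPKM in wild type to under 0.5 FPKM after deletion. They include Pnpla3, which is described with the 3-month oocytes below, the microRNA entries Mir7035 and Mir6244, and 3 further protein-coding genes. Manba, a lysosomal mannosidase, fell from 7.83 to 0.314 FPKM in the mean, with a log2 change of -2.74. Slc39a8, a metal ion importer of the ZIP family, fell from 5.87 to 0.274 FPKM (-2.41), and Cux2, a homeobox gene, from 5.18 to 0.487 FPKM (-2.07). The adjusted p was 3.71e-08, 3.74e-10 and 1.33e-07 in that order. The reverse step, from under 0.5 to at least 5 FPKM, was made by 6 members as well: Plac1, the small nucleolar RNA Snora47, Hoxd13, Isg20, Irgm2 and Smoc1. Isg20, an exonuclease induced by interferon, rose from 0.457 to 8.31 FPKM in the mean (log2 change 2.67, adjusted p = 3.73e-05). Irgm2, an immunity-related GTPase gene, rose from 0.0748 to 5.01 FPKM (2.48, adjusted p = 8.66e-07).

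Among the largest rises, several genes went from a few FPKM to far higher levels. Slc16a6, a monocarboxylate transporter, was at 1.14, 1.43 and 0.772 FPKM in wild-type oocytes and 28.8, 26.4 and 20.6 FPKM after deletion, a log2 change of 3.64 ± 0.19 (adjusted p = 2.99e-10). Mbp, known from myelin, rose from 4.01, 4.46 and 3.8 to 32.2, 32 and 27.7 FPKM with very little spread (log2 change 2.64 ± 0.12, adjusted p = 4.4e-11). Lmo4, a LIM-domain transcription cofactor, rose from 1.9, 2.09 and 2.47 to 19.3, 20.4 and 27.1 FPKM (log2 change 2.87 ± 0.36, adjusted p = 7.32e-06). No wild-type library reached the lowest deletion library in any of these genes, which the rule for naming the largest rises required. Pls3, an actin-bundling plastin, rose from 1.26, 1.48 and 1.09 to 13.5, 11.9 and 12.5 FPKM, the keratin gene Krt25 from 1.78, 1.64 and 2.61 to 12.5, 14.4 and 14.3, and Pdcd1, an inhibitory receptor best known from T cells, from 0.934, 1.07 and 1.94 to 9.93, 12.4 and 11.2. The linker histone gene Hist1h1c rose from 6.28, 3.08 and 6.01 to 30.5, 28 and 30.5 FPKM, but reads of near-identical histone genes may have been shared between copies. Fabp7, a fatty-acid-binding protein gene, rose from 2.34, 2.62 and 2.34 to 14.1, 11.9 and 25.6 FPKM.

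In 3 of the largest rises the libraries of a group lay far apart. Plin2, which coats lipid droplets, was at 5.08, 4.22 and 3.71 FPKM in wild-type oocytes and 14, 16.1 and 84.9 after deletion, so deletion library 3 was far above the others of its group. The log2 change was 2.40 ± 0.50 (adjusted p = 0.00121), and 1.59 without that library (adjusted p = 0.00514). Tceal8, a gene of the TCEAL family, was at 1.96, 2.31 and 2.34 and 19, 18.9 and 43.4 FPKM, with the same library highest. Eif3j2, a second copy of a translation initiation factor gene, was at 0.101, 2.75 and 0.107 FPKM in wild-type oocytes and 28.2, 64.1 and 57.9 after deletion (log2 change 4.86 ± 1.34, adjusted p = 0.0099), and leaving out wild-type library 2 gave 5.45 (adjusted p = 0.0141). Eif3j2 also varied within groups elsewhere, at 0.361, 23.4 and 63.0 FPKM in 3-month Gdf9-Cre oocytes and at 18.3, 56.2 and 48.1 FPKM in 3-month wild type. Eif3j1 is a near-identical gene, and the authors' quantification could have split reads between the copies.

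**Figure D2:**
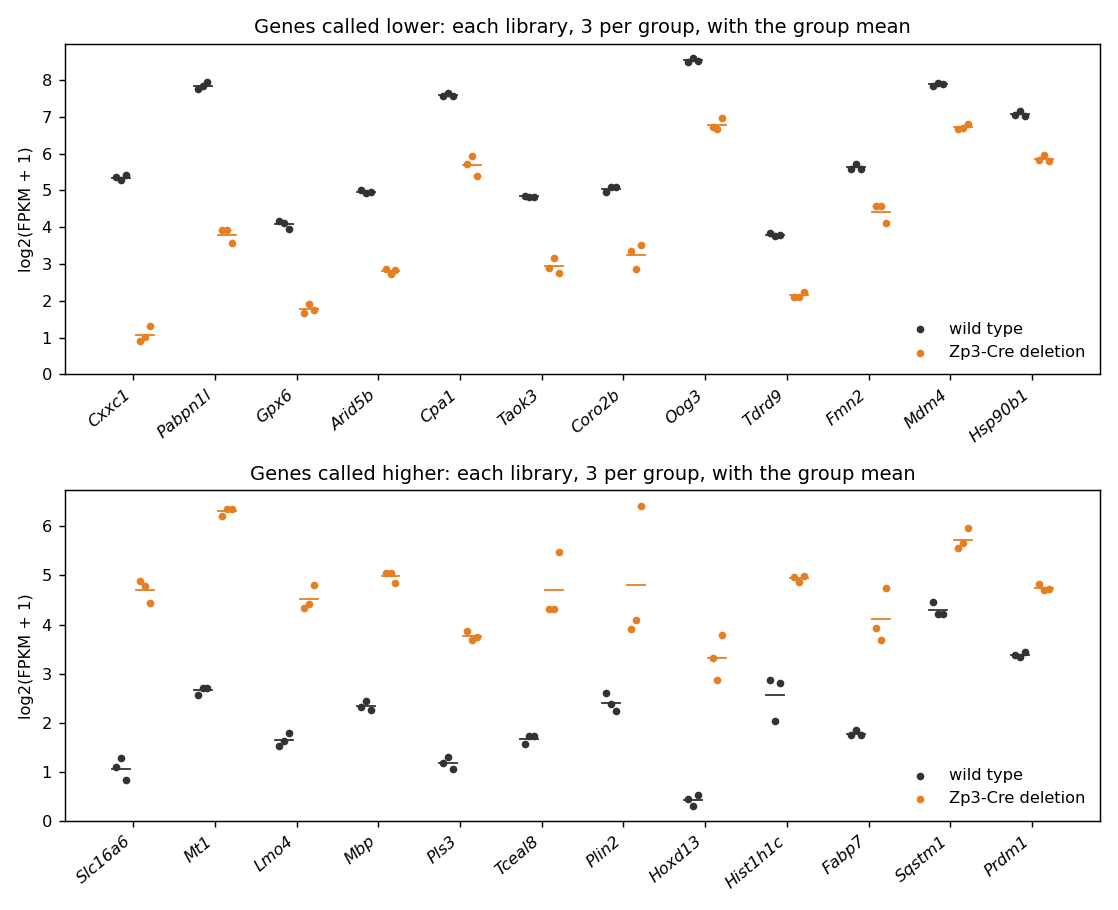
Level of 24 genes in each library on the log2(FPKM + 1) scale (vertical axis), with dark points for the 3 wild-type libraries, orange points for the 3 deletion libraries and a line at the group mean. The upper panel shows genes called lower and the lower panel genes called higher. The groups do not overlap in any of them, which the naming rule required for the largest changes. Plin2 and Tceal8 each have 1 deletion library far above the others.

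Because CFP1 binds unmethylated CpG, the promoters of the members were described by their CpG. Promoter windows from RefSeq (build GRCm38.p6), from 250 bases before to 50 bases after the annotated start, were matched to 9289 members (80.2%), 8830 by symbol and 459 through an older symbol. The following windows belong to 2 genes with large rises (Mt1 and Hspb1) and 2 with large falls (Pabpn1l and Extl1), written 5′ to 3′ on the gene's strand with each CpG in capitals.
Mt1, chr8:94178839-94179138, plus strand: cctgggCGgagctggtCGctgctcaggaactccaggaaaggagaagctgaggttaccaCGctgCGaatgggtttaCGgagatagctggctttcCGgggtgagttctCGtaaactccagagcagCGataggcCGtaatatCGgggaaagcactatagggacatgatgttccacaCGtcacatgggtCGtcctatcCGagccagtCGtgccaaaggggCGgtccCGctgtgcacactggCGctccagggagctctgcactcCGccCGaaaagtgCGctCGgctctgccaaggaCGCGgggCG
Hspb1, chr5:135887669-135887968, plus strand: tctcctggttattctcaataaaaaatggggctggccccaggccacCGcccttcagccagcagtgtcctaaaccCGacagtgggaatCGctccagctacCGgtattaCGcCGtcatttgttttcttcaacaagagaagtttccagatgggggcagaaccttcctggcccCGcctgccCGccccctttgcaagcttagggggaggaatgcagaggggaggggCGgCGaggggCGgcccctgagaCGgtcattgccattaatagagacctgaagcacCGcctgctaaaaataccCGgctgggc
Pabpn1l, chr8:122622686-122622985, minus strand: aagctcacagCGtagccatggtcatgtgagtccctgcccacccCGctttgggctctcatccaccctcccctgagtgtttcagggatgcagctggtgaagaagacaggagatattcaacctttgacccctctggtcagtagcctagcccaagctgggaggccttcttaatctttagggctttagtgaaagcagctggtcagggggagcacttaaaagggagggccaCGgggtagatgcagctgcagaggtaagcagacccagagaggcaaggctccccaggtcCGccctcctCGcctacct
Extl1, chr4:134372498-134372797, minus strand: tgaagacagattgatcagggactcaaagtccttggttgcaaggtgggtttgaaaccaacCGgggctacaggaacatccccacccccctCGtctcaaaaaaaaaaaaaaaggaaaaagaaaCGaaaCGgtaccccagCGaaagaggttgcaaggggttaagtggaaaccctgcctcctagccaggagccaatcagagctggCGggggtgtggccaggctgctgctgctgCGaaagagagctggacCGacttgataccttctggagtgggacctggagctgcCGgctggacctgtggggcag
The Mt1 window held 24 CpG, that of Hspb1 14, that of Extl1 9 and that of Pabpn1l 5, with a GC content of 60.7%, 58.3%, 55.3% and 57.7%. The windows of Stambpl1, another large rise, and Pnpla3, another large fall, are not printed and held 14 and 15 CpG. None of the 4 printed windows held the TATA box letters TATAAA on either strand, and bases outside these windows were not searched. The letters GGGCGG, a core recognized by Sp1 and searched on both strands, were in 63% of the matched members and in the windows of Mt1, Hspb1 and Pabpn1l.

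Promoters of genes that fell held fewer CpG in the median than those of genes that were not called, a description made without a test. Among members with a mean of at least 10 FPKM, where at least 80% of each of these sets could be matched, the median window held 23.5 CpG for the 1010 genes that rose, 18 for the 700 that fell and 22 for the 3058 that were not called. Windows with 5 CpG or fewer belonged to 4.85%, 19.3% and 4.94% of these sets, and to 34.6% of the 104 genes that fell at least 2-fold. Sorted the other way, 64 of 140 genes with at most 2 CpG fell (45.7%) and 20 rose (14.3%), whereas 300 of 2697 with at least 21 CpG fell (11.1%) and 606 rose (22.5%). The sets also differed in level, with a median of 48.6 FPKM at 0 to 2 CpG and 31.7 FPKM at 21 and over, and the share of level in this pattern was not tested. Over all matched members the sets that rose and fell had 79.6% and 79.8% of their genes matched, below the 80% set for this description, and medians of 20 and 18 CpG, with 21 for genes not called, so that genes that rose lay above those not called at 10 FPKM and over but below them here. Genes that rose at least 2-fold also had fewer CpG than all members: over all members their median was 14 CpG, with 22.4% at 5 or fewer (76.2% matched), and at 10 FPKM and over 19 CpG, with 6.41% (77.2% matched). Over all members the genes that fell at least 2-fold had a median of 11 CpG, with 33.8% at 5 or fewer. At 10 FPKM and over the letters TATAAA were in 4.95% of the windows of genes that rose, 6.86% of those that fell and 7% of those not called. Over all matched members these shares were 7.56%, 7.26% and 7.44%. Of genes that rose or fell at least 2-fold 14.7% and 10.4% held the letters, and 11.5% and 9.62% at 10 FPKM and over. Extl1, a glycosyltransferase gene of the exostosin family that fell by 2.66 on the log2 scale, and Pabpn1l lay on the CpG-poor side of all members, whose median window held 21 CpG. Mt1 lay above that median, and Hspb1, Stambpl1 and Pnpla3 lay below it.

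**Figure D3:**
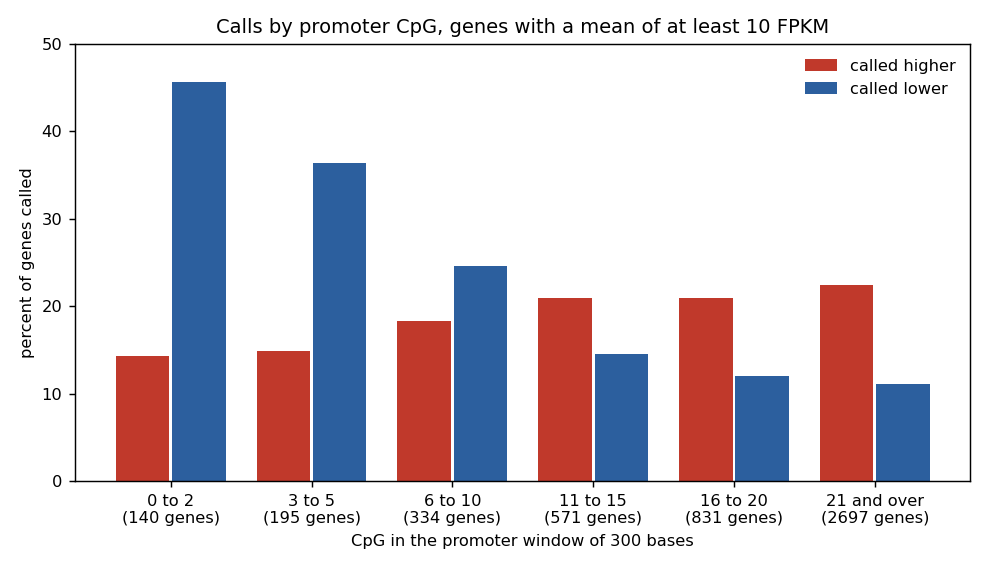
Percent of genes called higher (red) and lower (blue) by the number of CpG in the promoter window, for members with a mean of at least 10 FPKM; the number of genes is under each pair of bars. The share that fell drops from 45.7% at 0 to 2 CpG to 11.1% at 21 and over, and the share that rose goes from 14.3% to 22.5%.

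The H3K4 methylation machinery held called genes in both directions. Of 22 members that encode methyltransferases of this mark and their partners, 2 rose (9.09%) and 3 fell (13.6%), Cxxc1 included (rises 2 to 5 and falls 2 to 4 over the alternatives). Among all members 20.7% rose and 13.3% fell. Ash2l, a core subunit shared by all SETD1 and MLL complexes, was at 21.1, 23 and 21.2 FPKM in wild-type oocytes and 52.6, 48.1 and 42.4 after deletion, a log2 change of 1.09 ± 0.09 (adjusted p = 4.58e-08). Smyd3, another lysine methyltransferase gene, rose from 13, 12.1 and 14.1 to 21.8, 23 and 25.7 FPKM. Psip1, a chromatin reader that binds MLL complexes, fell from 73.5, 71.4 and 69.4 to 50.7, 48.3 and 59.4 FPKM. Kdm6a, the H3K27 demethylase of the MLL3 and MLL4 complexes, was the remaining member that fell, by 0.27 on the log2 scale. Among 11 H3K4 demethylase genes and partners 2 rose and 2 fell (rises 0 to 2 and falls 1 to 3 over the alternatives). Kdm1a rose by 0.51 (a call lost in 1 of 15 alternatives), Kdm5c fell by 0.48, and Rcor2 fell by 0.47, a call lost in 5 of 15 alternatives. Kdm1b, the demethylase that oocytes use at imprinted genes, was at 70.6, 76.7 and 68.9 FPKM in wild-type oocytes and 62.9, 52.3 and 62.3 after deletion (adjusted p = 0.0637).

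Of 15 members that write, remove or protect DNA methylation 4 fell and 1 rose (rises 0 to 3 and falls 3 to 4 over the alternatives). Dnmt3l, the cofactor of de novo methylation in oocytes, fell from 119.8, 124 and 125 to 85.8, 84.3 and 72.5 FPKM (log2 change -0.60 ± 0.13, adjusted p = 0.00181), while its catalytic partner Dnmt3a was at 39.5, 41.6 and 40.4 and 40.7, 35.5 and 38 FPKM (adjusted p = 0.698). Uhrf1, which brings Dnmt1 to replicated DNA, fell from 301, 279.7 and 303 to 238, 235 and 210.2 FPKM, a call lost in 3 of 15 alternatives. Dnmt1 and the dioxygenase gene Tet3 fell by 1.08 and 0.88 on the log2 scale. Dppa3, which protects maternal DNA from demethylation, was at 750.4, 727 and 726 and 835, 1074 and 891 FPKM and rose by 0.34, a call lost in 4 of 15 alternatives. Zfp57 and Trim28, which guard imprints, did not pass the test (0.23 and -0.13).

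Of 26 chromatin remodelling members 7 rose (26.9%) and 4 fell (15.4%), shares near those of all members (rises 4 to 10 and falls 3 to 6 over the alternatives, 4 and 3 to 4 without wild-type libraries 1 or 2 or deletion library 2). Arid5b, an ARID-family DNA-binding cofactor, was at 31.1, 29.8 and 29.9 FPKM in wild-type oocytes and 6.29, 5.59 and 6.11 after deletion (log2 change -2.16 ± 0.19, adjusted p = 1.24e-07), and Arid1a, a large subunit of the BAF complex, fell from 59.2, 56.3 and 61 to 27.3, 23.2 and 31.2 FPKM (log2 change -1.09 ± 0.09, adjusted p = 7.37e-08). The core subunits Actl6a and Smarcc2 rose by 0.63 and 0.59. For Arid5b and Arid1a every deletion library lay below every wild-type library by a wide margin. Among 31 Polycomb members 7 rose and 6 fell (rises 2 to 10 and falls 5 to 6 over the alternatives, 3 to 4 and 5 to 6 without wild-type library 2 or deletion library 1), among them Pcgf1, a subunit of a variant PRC1 complex, from 369, 379 and 364 to 219, 225 and 220.4 FPKM and Ezh2, the H3K27 methyltransferase, from 182, 201 and 176 to 249, 264 and 269 FPKM, a call lost in 1 of 15 alternatives. Of the deacetylase and NuRD list 5 members rose and 3 fell (rises 2 to 9 and falls 2 to 3 over the alternatives, 2 to 3 and 2 to 3 without wild-type libraries 1 or 2 or deletion libraries 2 or 3). The deacetylase gene Hdac1 rose from 7.84, 6.63 and 6.66 to 14.9, 13.7 and 15.2 FPKM and Mta3, a NuRD subunit, fell from 131, 117 and 122 to 73.9, 77.1 and 72. Arginine methyltransferases rose in 2 cases: Prmt5 from 5.41, 4.91 and 5.31 to 11, 13.6 and 13.4 FPKM (log2 change 1.13 ± 0.12, adjusted p = 1.14e-06) and Prmt1 by 0.78, the latter lost in 1 of 15 alternatives. In the H3K9 list Ehmt1 fell by 0.38 and Mphosph8 rose by 0.49, each lost in 1 of 15 alternatives.

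Of 30 members for histone variants and histone chaperones 9 rose and 4 fell (rises 4 to 9 and falls 3 to 7 over the alternatives, 4 and 3 without deletion library 3). Npm2, the chaperone that remodels sperm chromatin, fell from 1101, 1078 and 1097 to 621, 656 and 673 FPKM (log2 change -0.75 ± 0.13, adjusted p = 0.00022). H1f0, the replacement linker histone, rose from 50.6, 43.2 and 43.8 to 84, 70.4 and 93.5 FPKM (log2 change 0.83 ± 0.11, adjusted p = 1.09e-05), and H2afy, which encodes macroH2A1, from 9.09, 6.97 and 9.52 to 15.7, 15.3 and 14.8. The testis and oocyte variants Hist1h2aa and Hist1h2ba rose by 0.94 and 1.39, with calls lost in 2 and 1 of 15 alternatives, and deletion library 3 was highest for both.

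Clustered gene families of the oocyte were mostly lower. Of 20 oogenesin and oocyte F-box (Fbxw) members, which encode leucine-rich and ubiquitin ligase proteins made almost only in oocytes, 17 fell and 1 rose (rises 0 to 1 and falls 15 to 17 over the alternatives), with a median log2 change of -0.84 against 0.10 over all members. After median-of-ratios scaling or quantile normalization 17 fell and 0 rose, with medians of -0.94 and -0.86. Oog3 was at 362, 387 and 369 FPKM in wild-type oocytes and 104, 100.2 and 123 after deletion (log2 change -1.77 ± 0.10, adjusted p = 3.35e-10). Fbxw21 was at 349, 375 and 354 and 169, 185 and 128 FPKM (log2 change -1.17 ± 0.15, adjusted p = 8.45e-06), and Fbxw26 at 120.2, 115 and 112 and 49.3, 54.7 and 57.2 FPKM (log2 change -1.09 ± 0.22, adjusted p = 0.000947). No deletion library reached a wild-type library in these genes, and Fbxw14, Fbxw18, Fbxw20 and Fbxw28 fell by 0.99 to 1.05. Members that did not fall were the related Pramef genes, of which Pramef17 rose by 0.46 and Pramef12 and Pramef8 did not pass (-0.10 and 0.05). These genes lie in clusters of near-identical copies, so values of single copies are uncertain.

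Genes of the Nlrp family, cytoplasmic proteins of the oocyte encoded by another set of duplicated genes, fell in 7 of 8 members beyond those of the maternal complex, with a median log2 change of -0.62 and of -0.72 under both other scalings, and 7 fell in each of the 15 alternatives. Nlrp4b was at 106, 117 and 106 FPKM in wild-type oocytes and 65.9, 71.3 and 47 after deletion (log2 change -0.84 ± 0.16, adjusted p = 0.000433). Nlrp4a was at 167, 178 and 159 and 103, 116 and 97.5 FPKM (log2 change -0.67 ± 0.08, adjusted p = 8.03e-06). Nlrp9a, Nlrp9c and Nlrp4g fell by 0.56, 0.54 and 0.44, less than the 1.82 of Nlrp9b and the 1.58 of Nlrp4e. Nlrp4c, the least abundant member at 6.32, 6.6 and 5.97 FPKM in wild type, did not pass (-0.24, adjusted p = 0.303). Nlrp5 and Padi6, which build the subcortical maternal complex, had log2 changes of 0.13 (adjusted p = 0.428) and 0.15 (adjusted p = 0.543), whereas Ooep fell by 0.51 (adjusted p = 0.0201). Of 25 maternal effect members 8 fell and 3 rose, with 8 falls and 0 rises after median-of-ratios scaling and 5 falls and 4 rises after quantile normalization. Without wild-type library 3 or deletion library 3 the falls were 4, and without wild-type library 1 they were 5. Bnc1, an oocyte zinc-finger gene, fell from 62.2, 63.3 and 63.8 to 37.8, 35.3 and 29.1 FPKM (log2 change -0.88 ± 0.09, adjusted p = 4.8e-07), and Nlrp4f from 242, 236 and 242 to 145, 159 and 123. Nlrp2 fell by 0.58, a call lost in 3 of 15 alternatives.

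Secreted and surface proteins of the oocyte fell in part. Of 11 zona and gamete fusion members 6 fell and 1 rose (rises 0 to 2 and falls 6 to 8 over the alternatives), with a median of -0.60, and of -0.71 and -0.44 under the other scalings. Oosp2, a secreted oocyte protein gene, was at 262, 282 and 268 FPKM in wild-type oocytes and 164, 162 and 150.1 after deletion (log2 change -0.76 ± 0.11, adjusted p = 2.27e-05). Oosp1 was at 928, 855 and 903 and 553, 621 and 561 FPKM (log2 change -0.63 ± 0.11, adjusted p = 0.000219). Cd9, the tetraspanin needed on the egg for sperm fusion, was at 60.2, 55.9 and 61.5 and 35.5, 38 and 34 FPKM (log2 change -0.71 ± 0.16, adjusted p = 0.00291). In all 3 genes the groups were separate, as in 56.3% of all members. Of the zona genes Zp1 fell from 609.6, 621 and 616 to 453, 405 and 361 FPKM (log2 change -0.60 ± 0.13, adjusted p = 0.00203), Zp3 was at 1811, 1832 and 1779 and 1437, 1295 and 1274 (adjusted p = 0.171) and Zp2 at 939, 991 and 958 and 1159, 1210.4 and 1064 (adjusted p = 0.197). Izumo1r, which encodes the sperm receptor Juno, did not pass (-0.17). Among 19 secreted signals and their receptors 4 fell and 2 rose (rises 1 to 5 and falls 4 to 9 over the alternatives), with Igf2r, the receptor that clears IGF2, at 12.6, 11.6 and 13.1 FPKM in wild-type oocytes and 5.46, 6.03 and 4.7 after deletion (log2 change -1.07 ± 0.24, adjusted p = 0.00207). Kit, the receptor through which granulosa cells promote oocyte growth, fell by 0.52 (adjusted p = 0.0023), and Bmp15, the partner of Gdf9, did not pass (-0.35, adjusted p = 0.0779). Fgf10 rose by 0.71.

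Of 21 oocyte transcription factor members 8 fell and 2 rose (rises 1 to 4 and falls 7 to 9 over the alternatives), and 4 of the 8 were Obox homeobox genes, whose near-identical copies make single values uncertain. Sall4, a zinc-finger factor needed for oocyte growth, was at 56.2, 54.9 and 62.3 FPKM in wild-type oocytes and 25.9, 27.7 and 25.1 after deletion (log2 change -1.11 ± 0.09, adjusted p = 2.86e-08). Obox7, Sebox and Klf17 fell by 1.09, 0.70 and 0.51. The early oocyte factors Nobox, Figla and Lhx8 did not pass, at 0.22, -0.13 and -0.30. The general factor Gtf2b rose by 0.86 (adjusted p = 0.000413).

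Among 34 members for storage and translation of messenger RNA 8 rose and 9 fell (rises 3 to 10 and falls 7 to 11 over the alternatives, 5 and 9 without wild-type library 1). Patl2, a repressor of translation in the oocyte, was at 30.9, 32.1 and 30.4 FPKM in wild-type oocytes and 21.4, 15.2 and 16 after deletion (log2 change -0.81 ± 0.16, adjusted p = 0.000954). Its relative Patl1, a decapping cofactor, was at 11.3, 12.7 and 10.6 and 22.2, 21.2 and 21 FPKM (log2 change 0.85 ± 0.09, adjusted p = 1.05e-06). In both genes the groups were separate, as in 56.3% of all members. Eif4e1b, the oocyte cap-binding protein, fell by 1.09, and the somatic form Eif4e rose by 0.51. Ybx2, Igf2bp2 and Papolg fell by 0.53, 0.50 and 0.59. In the decay list, with 6 rises and 4 falls among 38 members (rises 1 to 8 and falls 4 to 5 over the alternatives, 2 to 3 and 4 without wild-type libraries 1, 2 or 3 or deletion library 3), Dcp1a, a decapping activator, fell from 145, 135 and 147 to 97.4, 102 and 95 FPKM.

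Of 25 members of small RNA pathways 7 fell and 6 rose (rises 3 to 7 and falls 5 to 9 over the alternatives). Tdrd9, a helicase of the piRNA pathway, was at 13.3, 12.6 and 12.9 FPKM in wild-type oocytes and 3.28, 3.32 and 3.7 after deletion (log2 change -1.65 ± 0.16, adjusted p = 3.38e-07). Gtsf1, a zinc-finger partner of PIWI proteins, was at 207, 191 and 186 and 91.1, 109 and 94 FPKM (log2 change -0.99 ± 0.21, adjusted p = 0.00163). The PIWI gene Piwil1 and the tudor gene Tdrd5 fell by 0.75 and 0.87. Mael, which acts in the same pathway, went the other way, from 35.7, 34.6 and 32.8 to 73.6, 76.3 and 73.3 FPKM (log2 change 1.09 ± 0.14, adjusted p = 1.09e-05). Dicer1, which cuts the small interfering RNAs of mouse oocytes, fell by 0.27 (adjusted p = 0.038), and Ago2 did not pass (0.32).

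Of 32 genes of meiotic arrest and resumption 8 rose (25%) and 5 fell (15.6%), shares near those of all members, and 5 rose and 5 fell after median-of-ratios scaling (rises 5 to 12 and falls 2 to 8 over the alternatives, 5 to 6 and 2 to 3 without wild-type libraries 1 or 2 or deletion libraries 2 or 3). Cdc25c, a phosphatase that activates the cyclin B kinase, was at 2.5, 4.09 and 4.51 FPKM in wild-type oocytes and 10.8, 10.5 and 10.2 after deletion (log2 change 1.31 ± 0.19, adjusted p = 3.13e-05). Ensa, an inhibitor of phosphatase 2A, rose from 18.2, 20.3 and 22.3 to 31.3, 33.1 and 34.6 FPKM, and Adcy9, an adenylyl cyclase, fell from 6.51, 5.94 and 6.21 to 3.75, 3.41 and 2.93. The kinase gene Cdk1 and its cyclin Ccnb1 did not pass (0.33 and -0.04). Fmn2, the formin that moves the oocyte spindle to the cortex, fell from 47.4, 51.5 and 47.3 to 22.7, 22.7 and 16.3 FPKM (log2 change -1.22 ± 0.10, adjusted p = 7.78e-08), while 12 of 35 spindle and checkpoint members rose and 5 fell (rises 4 to 18 and falls 1 to 5 over the alternatives, 5 to 7 and 1 to 3 without wild-type libraries 1, 2 or 3 or deletion libraries 1 or 3). After median-of-ratios scaling 4 spindle and checkpoint members rose and 5 fell. Racgap1 and Cdca8, which act at the midzone and centromere, rose by 0.65 and 0.66.

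Of 33 members for the chromosome axis and cohesion 4 rose and 4 fell (12.1% each), no more than among all members (rises 3 to 9 and falls 3 to 6 over the alternatives). Sycp2 fell from 6.32, 6.65 and 6.34 to 1.99, 2.88 and 1.61 FPKM (log2 change -1.25 ± 0.17, adjusted p = 1.56e-05), and its partner in the axis, Sycp3, rose from 9.89, 10.1 and 10.4 to 24.8, 31.4 and 32.8 FPKM (log2 change 1.45 ± 0.20, adjusted p = 2.6e-05). Sycp1, which forms the transverse filaments between the axes, rose from 2.09, 1.95 and 1.17 to 3.07, 4.48 and 2.93 FPKM. Ncapg, a condensin subunit, fell from 99.3, 107 and 92.7 to 54.4, 61.7 and 63.1 FPKM (log2 change -0.73 ± 0.13, adjusted p = 0.000232). Cell cycle and replication genes rose in 14 and fell in 3 of 45 members (rises 8 to 23 and falls 2 to 6 over the alternatives, 8 to 9 and 2 to 3 without wild-type libraries 1, 2 or 3 or deletion libraries 1 or 3). Cdkn2a, the locus of the p16 and Arf growth inhibitors, was at 1.12, 1.1 and 1.2 FPKM in wild-type oocytes and 6.72, 8.03 and 8.32 after deletion (log2 change 2.02 ± 0.33, adjusted p = 0.000155). The D-type cyclin gene Ccnd2 rose from 3.75, 3.09 and 3.21 to 7.37, 8.04 and 12.1 FPKM and Mcm7, of the replicative helicase, from 42.9, 45.2 and 45.2 to 79.8, 76.6 and 76.1.

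Of 35 DNA damage members 6 rose (17.1%) and 3 fell (8.57%), beside 20.7% and 13.3% of all members, and 3 rose and 4 fell after median-of-ratios scaling (rises 3 to 12 and falls 2 to 5 over the alternatives). Mdm4, which restrains p53, was at 230.3, 244 and 238 FPKM in wild-type oocytes and 102, 103 and 110.5 after deletion (log2 change -1.17 ± 0.09, adjusted p = 3.46e-08). Trp53 itself was at 17.2, 17.8 and 13.8 and 28.1, 24.8 and 30.0 FPKM (log2 change 0.73 ± 0.14, adjusted p = 0.000678). Gadd45a, a p53 target that answers DNA damage, was at 3.33, 4.01 and 2.56 and 10.4, 10.1 and 8.7 FPKM (log2 change 1.33 ± 0.25, adjusted p = 0.000517). The groups did not overlap in these genes, as in 56.3% of all members. Pmaip1, which encodes the death protein Noxa, was at 0.0656, 0.0536 and 0.0593 FPKM in wild-type oocytes and 0.65, 1.08 and 2.45 after deletion, and passed the filter through the deletion group alone. Diablo, which relieves caspase inhibition, rose from 12.4, 12.8 and 13.7 to 22.4, 22.2 and 21.7 FPKM. Bik, a death gene of the BH3-only group, fell from 16.8, 18.3 and 19.5 to 3.62, 3.94 and 10.7 FPKM, with deletion library 3 highest of its group. Of 20 apoptosis members 5 rose and 2 fell (rises 4 to 8 and falls 1 to 5 over the alternatives).

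Of 28 heat-shock and chaperone members 11 rose and 5 fell, and 6 and 5 after median-of-ratios scaling (rises 6 to 13 and falls 3 to 7 over the alternatives, 10 to 11 and 3 without wild-type library 2 or deletion library 1). Hspa1b, an inducible cytosolic chaperone, was at 15.9, 16.7 and 19.9 FPKM in wild-type oocytes and 118, 83.7 and 94.6 after deletion (log2 change 2.42 ± 0.31, adjusted p = 1.09e-05), and its reads can be shared with Hspa1a. Hsp90b1, the chaperone of the endoplasmic reticulum, was at 132, 142 and 130.2 and 56, 61.3 and 54.4 FPKM (log2 change -1.22 ± 0.18, adjusted p = 5.2e-05). Calr, its lectin chaperone, was at 387, 379.8 and 386 and 207, 219.8 and 203 FPKM (log2 change -0.87 ± 0.22, adjusted p = 0.0049). Hspa5, which encodes BiP, Hsph1 and the mitochondrial Hspa9 fell as well, by 0.79, 1.01 and 0.63. The abundant constitutive chaperones Hspa8 and Hsp90ab1 did not pass (-0.14 and 0.07). The letters GAANNTTC, a pair of inverted heat-shock element units that reads the same on both strands, occurred 2 times in the Hspb1 window printed above and 1 time each in those of Hspa1a, Hspa1b, Hsph1 and Bag3, and not in those of Hspa1l and Dnajb1. They were in 7.95% of all promoter windows and 5.85% of those of members, and this motif was chosen after the values were seen. Hsph1, whose window holds the letters, was among the genes that fell.

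Of 28 members of the endoplasmic reticulum and integrated stress list 5 rose and 4 fell (rises 5 to 11 and falls 4 to 5 over the alternatives). Vldlr, a lipoprotein receptor that this response can induce, was at 0.36, 0.453 and 0.544 FPKM in wild-type oocytes and 4.49, 5.02 and 3.48 after deletion (log2 change 1.87 ± 0.17, adjusted p = 1.52e-07), and Trib3, a pseudokinase of the same response, at 0.436, 0.855 and 1.02 and 2.06, 3 and 3.08 (log2 change 1.07 ± 0.17, adjusted p = 0.00012). The response's central factor Atf4 and its target Slc7a11, a cystine transporter, fell by 0.48 and 0.80. Immediate early genes rose in 4 of 12 members and fell in 0 (rises 3 to 6 and falls 0 to 1 over the alternatives), and 4 members passed the filter through the deletion group alone. Egr1 was at 15.3, 13.6 and 13.7 FPKM in wild-type oocytes and 27.7, 22.4 and 26.1 after deletion (log2 change 0.79 ± 0.15, adjusted p = 0.000665), Klf4 rose by 0.70, and Fos, Junb and Dusp1 did not pass (0.39, -0.90 and -0.12).

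Redox and metal genes rose in 8 and fell in 3 of 30 members (rises 6 to 13 and falls 3 to 4 over the alternatives). Mt1, a metallothionein that binds zinc and other metals, was at 4.89, 5.57 and 5.58 FPKM in wild-type oocytes and 72.6, 81.1 and 81.3 after deletion (log2 change 3.64 ± 0.22, adjusted p = 9.31e-10), and its relative Mt2 rose by 1.24. Gpx1, a glutathione peroxidase, was at 7.12, 5.49 and 5.34 and 17.4, 24.5 and 41.8 FPKM (log2 change 1.97 ± 0.27, adjusted p = 2.27e-05). Hmox1, the haem oxygenase, was at 1.06, 0.672 and 0.424 and 5.26, 6.16 and 5.3 FPKM (log2 change 1.95 ± 0.35, adjusted p = 0.000354), and Nqo1, a quinone reductase, at 1.92, 2.59 and 3.02 and 6.71, 7.05 and 8.22. Hmox1 and Nqo1 are known targets of the factor encoded by Nfe2l2, which itself fell by 1.02 (adjusted p = 3.79e-05). The metal-sensing factor gene Mtf1 did not pass (0.04).

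Of 30 autophagy members 14 rose (46.7%, against 20.7% of all members) and 1 fell (rises 10 to 15 and falls 1 over the alternatives), with a median of 0.31. After each of the other scalings 10 rose and 1 fell, with medians of 0.21 and 0.25. Sqstm1, the cargo receptor p62, was at 21, 17.5 and 17.6 FPKM in wild-type oocytes and 45.9, 49.5 and 61.3 after deletion (log2 change 1.43 ± 0.18, adjusted p = 7.78e-06). Wipi1, which reads the phospholipid of forming autophagosomes, was at 4.7, 4.82 and 4.5 and 13.7, 11 and 9.02 FPKM (log2 change 1.09 ± 0.16, adjusted p = 6.17e-05), and Atg10, a conjugating enzyme, at 2.99, 1.22 and 1.86 and 5.22, 4.51 and 5.85 (log2 change 1.07 ± 0.21, adjusted p = 0.000724). The kinase gene Ulk2 and the initiation factor Becn1 did not pass (-0.22 and -0.04). Atg16l1 was the member that fell (-0.53).

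Of 45 members of glycolysis, pyruvate use and the citric acid cycle 15 rose and 3 fell (rises 9 to 25 and falls 2 to 3 over the alternatives), with a median of 0.30, and 9 rose and 3 fell after median-of-ratios scaling with a median of 0.20. Gapdh was at 57.6, 57.9 and 52.3 FPKM in wild-type oocytes and 129.9, 129 and 149 after deletion (log2 change 1.27 ± 0.15, adjusted p = 4.88e-06). Pdk3, which switches off pyruvate dehydrogenase, was at 14.7, 15.7 and 13.9 and 33.1, 33.2 and 30.6 FPKM (log2 change 1.08 ± 0.12, adjusted p = 3.29e-06), and its relative Pdk1 fell from 5.25, 5.42 and 5.31 to 1.5, 1.96 and 4.5, a call lost in 1 of 15 alternatives. Glycolysis is weak in mouse oocytes, which burn pyruvate, and Gapdh is often taken as a constant reference gene. Pfkm, Pkm and Pgk1 rose by 0.84, 0.55 and 0.59.

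Of 31 lipid members 7 rose (22.6%) and 5 fell (16.1%), shares near those of all members, and 6 rose and 8 fell after median-of-ratios scaling (rises 5 to 12 and falls 4 to 9 over the alternatives). Acacb, the mitochondrial acetyl-CoA carboxylase, was at 21.7, 20.2 and 21.7 FPKM in wild-type oocytes and 10.3, 7.41 and 7.28 after deletion (log2 change -1.26 ± 0.14, adjusted p = 2.18e-06). Acaca, the cytosolic form of the same enzyme, rose by 1.09. Acadl, an acyl-CoA dehydrogenase, rose from 1.11, 1.74 and 2.17 to 4.7, 5.6 and 7.25 FPKM (log2 change 1.36 ± 0.23, adjusted p = 0.000187).

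Of 82 cytosolic ribosomal members 6 rose and 1 fell, 2 and 1 after median-of-ratios scaling, but 37 rose and 5 fell when only the 12 GV oocyte libraries were fitted and 30 and 5 with only the 6 libraries compared (rises 2 to 37 and falls 0 to 5 over the alternatives, 2 to 3 and 0 to 1 without wild-type libraries 2 or 3 or deletion libraries 2 or 3). Rplp0 was at 158, 138 and 145 FPKM in wild-type oocytes and 237, 263 and 240.5 after deletion (log2 change 0.75 ± 0.16, adjusted p = 0.00181). Of 77 mitochondrial ribosomal members 12 rose and 3 fell (rises 5 to 24 and falls 2 to 6 over the alternatives, 7 and 2 without wild-type libraries 1 or 3 or deletion library 3), with Mrpl20 rising from 3.92, 4.64 and 5.35 to 12.6, 12.1 and 14.5 FPKM and Mrpl38 falling from 40.7, 32.2 and 30.6 to 19.2, 17.7 and 16. Of 29 mitochondrial import members 8 rose and 2 fell (rises 5 to 11 and falls 2 to 5 over the alternatives). Samm50, which sorts proteins into the outer membrane, fell from 38.4, 34 and 34.2 to 18.3, 14.9 and 23.9 FPKM (log2 change -0.89 ± 0.21, adjusted p = 0.0033). Timm10 was at 14.6, 14.2 and 12.9 FPKM in wild-type oocytes and 56.1, 54.6 and 17.2 after deletion, with deletion library 3 close to wild type, and its call was lost in 5 of 15 alternatives. Of 75 members for RNA polymerase II, its factors and Mediator 20 rose and 6 fell (rises 9 to 28 and falls 3 to 10 over the alternatives, 11 to 13 and 3 to 6 without wild-type libraries 1 or 2 or deletion library 3). Med18 rose from 1.1, 1.07 and 1.38 to 5.48, 4.12 and 6.66 FPKM (log2 change 1.54 ± 0.20, adjusted p = 1.04e-05), and Med27 and Med28 fell by 0.94 and 0.98. Of 50 nuclear pore and importin members 11 rose and 3 fell (rises 4 to 17 and falls 3 to 10 over the alternatives, 6 to 7 and 3 without any 1 library), with falls of Nup214 from 158, 157 and 153 to 87.8, 84.9 and 68 FPKM and Ipo8 from 67.4, 64.7 and 69.9 to 36.5, 37.8 and 31.1. The prefoldin genes Vbp1 and Pfdn4, which hand proteins to the chaperonin, fell by 1.07 and 0.96, and the chaperonin subunit Cct8 rose by 0.39, a call lost in 1 of 15 alternatives.

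Among 53 spliceosome members 10 rose and 4 fell (rises 4 to 17 and falls 1 to 6 over the alternatives, 5 to 9 and 1 to 4 without wild-type libraries 1, 2 or 3 or deletion libraries 2 or 3), with Lsm2, of the U6 ring, rising from 43.5, 45.5 and 40.3 to 65.8, 59.7 and 80.2 FPKM. Among 22 aminoacyl-tRNA synthetase members 5 rose and 4 fell (rises 2 to 8 and falls 2 to 6 over the alternatives, 4 and 2 without deletion library 3), with the isoleucine enzyme Iars falling from 91.3, 99.5 and 92.5 to 68.2, 61.2 and 53.4 FPKM and its complex partner Eef1e1 from 35, 35.7 and 41.2 to 20.7, 21.9 and 20.5. Among 39 ubiquitin members 6 rose and 7 fell (rises 3 to 14 and falls 4 to 11 over the alternatives, 4 to 6 and 4 without wild-type libraries 2 or 3 or deletion library 1). Uba1, the main activating enzyme, fell from 171, 169 and 169.8 to 112, 108 and 104 FPKM (log2 change -0.65 ± 0.13, adjusted p = 0.000735), and Uchl3, a hydrolase, rose from 45.8, 37 and 38.6 to 74.4, 70.0 and 90.5. Respiratory chain and proteasome members rose in 23 of 85 and 15 of 42, with 1 fall in each, and in 15 and 7 after median-of-ratios scaling. With only the 12 GV oocyte libraries fitted they rose in 43 and 31, and with only the 6 libraries in 41 and 27. Leaving out 1 library gave 14 to 24 respiratory chain rises, with 14 without deletion library 2. It gave 5 to 14 proteasome rises, with 5 without deletion library 3 and 8 without wild-type library 1, 2 or 3 or deletion library 2.

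**Figure D4:**
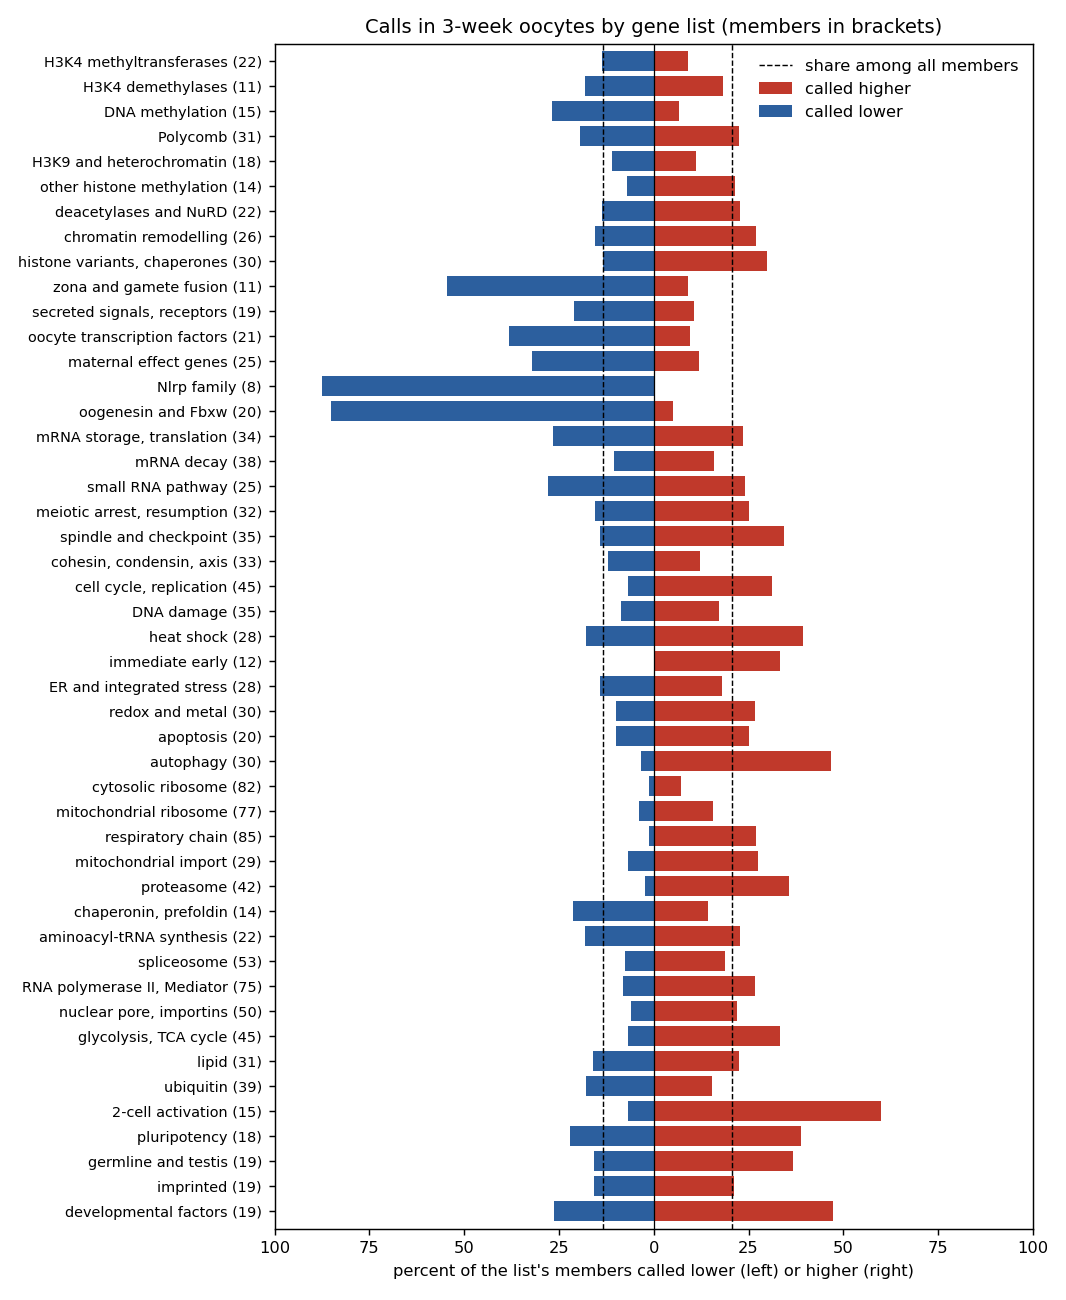
Percent of the members of each gene list called lower (blue, to the left) or higher (red, to the right), with the number of members in brackets; dashed lines mark the shares among all members, 13.3% lower and 20.7% higher. The oogenesin and Fbxw list and the Nlrp family reach furthest to the left and the 2-cell activation list furthest to the right.

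Genes that the oocyte normally keeps low or uses at other stages included some large rises. Of 15 members known from genome activation at the 2-cell stage 9 rose and 1 fell (rises 8 to 11 and falls 1 over the alternatives), but 7 of the 15 passed the filter through the deletion group alone, so the count is no support for a shared rise. Zscan4f was at 2.53, 1.97 and 2.98 FPKM in wild-type oocytes and 6.93, 6.72 and 9.29 after deletion (log2 change 1.30 ± 0.20, adjusted p = 6.05e-05). Zscan4c and Zscan4d were at 1.20 to 2.15 FPKM in wild-type oocytes and at 6.17 to 8.40 FPKM after deletion. The Usp17l genes were listed at 0 to 0.0919 FPKM in wild-type oocytes and at 0.644 to 3.92 FPKM after deletion. Copies of both families are near-identical, so which copy was read is uncertain. Eif1ax, Arg2, Tcstv1 and Tcstv3 did not pass, and Sp110, a nuclear body protein gene, fell from 296, 303 and 296 to 169, 135 and 221 FPKM (log2 change -0.80 ± 0.20, adjusted p = 0.00466).

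Developmental regulators were mostly silent, and 19 of 86 Hox, Sox, Pax, Tbx and Gata genes were members. Of these 9 rose and 5 fell (rises 8 to 10 and falls 3 to 5 over the alternatives, 8 to 9 and 3 without wild-type libraries 1, 2 or 3 or deletion libraries 2 or 3), and 7 passed the filter through the deletion group alone. Hoxd13, which patterns the limb ends, was at 0.353, 0.231 and 0.446 FPKM in wild-type oocytes and 8.98, 6.36 and 12.8 after deletion (log2 change 2.90 ± 0.20, adjusted p = 4.67e-09). Hoxa7 was already present, at 8.39, 8.89 and 10.3 FPKM in wild type, and was at 21.3, 25.4 and 19.7 FPKM after deletion (log2 change 1.18 ± 0.14, adjusted p = 5.94e-06). Hoxd1 stayed below 3.5 FPKM in every library and rose by 1.19.

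Genes of pluripotent and germ cells changed singly. Dppa5a, an RNA-binding marker of pluripotent cells, was at 236, 226 and 244 FPKM in wild-type oocytes and 508, 620.3 and 834 after deletion (log2 change 1.44 ± 0.16, adjusted p = 3.06e-06). Prdm1, which specifies germ cells, was at 9.37, 9.1 and 9.82 and 27.3, 25 and 25.4 FPKM (log2 change 1.37 ± 0.13, adjusted p = 2.42e-07). Esrrb, an orphan nuclear receptor of stem cells, was at 21, 19.9 and 20.9 and 12.2, 9.82 and 8.61 FPKM (log2 change -0.96 ± 0.12, adjusted p = 1.27e-05). The stem cell factors Sox2 and Pou5f1 had log2 changes of -0.61 (adjusted p = 0.0451) and 0.00 (adjusted p = 1). Over the list of 18 members 7 rose and 4 fell (rises 5 to 7 and falls 2 to 5 over the alternatives, 5 to 6 and 2 without wild-type libraries 1 or 3 or deletion library 2). Among 19 germline and testis members 7 rose and 3 fell (rises 6 to 7 and falls 2 to 4 over the alternatives), including Prm2, a sperm protamine gene, from 8.07, 8.53 and 9.96 to 2.66, 1.3 and 3.91 FPKM and Xlr4a, of the X chromosome, from 13.7, 13.1 and 14.7 to 22.8, 29 and 26.6. Imprinted genes rose in 4 and fell in 3 of 19 members: Grb10, a growth adaptor, rose from 4.53, 4.38 and 3.71 to 9.52, 8.63 and 13.1 FPKM (log2 change 1.12 ± 0.13, adjusted p = 4.21e-06), Phlda2 from 4.91, 5 and 6.27 to 13.9, 15.4 and 12.5 and Slc22a18 from 0.497, 0.71 and 0.671 to 3.25, 4.06 and 2.43.

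Most of the called genes were called in the same direction in the other oocyte model, which has its own wild-type libraries. In 3-month oocytes Gdf9-Cre, active from an earlier follicle stage, left 34.9% of the members called higher and 17.8% called lower. Of the 2393 genes that rose at 3 weeks, 2021 (84.5%) also rose at 3 months, which is 49.9% of the 4047 that rose there. Of the 1537 that fell at 3 weeks, 1131 (73.6%) also fell, which is 55% of the 2057 that fell there. Opposite calls were made for 17 and 15 genes. After median-of-ratios scaling the share of rises among the 3-month calls went from 66.3% to 44.5%, and 76.2% of the genes that rose and 83.5% of those that fell at 3 weeks were called the same way at 3 months. Insm1, a zinc-finger gene, was at 28.6, 28.1 and 27.8 FPKM in wild-type oocytes and 3.79, 2.43 and 2.13 after deletion at 3 weeks, and at 31.3, 27.5 and 34.2 FPKM and 2.84, 2.49 and 2.83 FPKM at 3 months. Arid5b, Oog3, Taok3 and Mbp had effects of -2.68, -1.75, -1.88 and 2.68 at 3 months, beside -2.16, -1.77, -1.90 and 2.64 at 3 weeks.

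The effect itself differed between the models for fewer genes. The test of the difference called 336 members with a higher effect at 3 months (2.9% of members) and 228 with a lower one (1.97%), and 1397 and 734 when only the 12 GV oocyte libraries were fitted. Leaving out 1 of the 12 libraries gave 172 to 378 and 117 to 262, and the counts fell by over 1.5 times without any of them except deletion libraries 1 and 3 at 3 weeks and deletion library 3 at 3 months. Higher effects were 59.6% of these calls as deposited, 29.2% after median-of-ratios scaling and 29.5% after quantile normalization. Age and Cre differ together between the models and cannot be told apart here. Granulosa markers summed to 238 to 355 FPKM in 3-month deletion oocytes, against 166 to 175 FPKM in their wild type, and Inha, an inhibin subunit of granulosa cells, and Amh were the members of that list whose effects were called different.

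In 10 of the 12 genes named for such a difference the wild-type groups of both ages were also called different from each other, with the same wild-type libraries entering both tests. The 12 were picked for large differences of effect. The share of all members called between these wild-type groups is not given here, so the count is a description only. Pnpla3, a lipid-droplet acyl hydrolase, was at 64.3, 66.5 and 67.1 FPKM in 3-week wild type and 0.331, 0.296 and 0.284 after deletion, but at 0.180, 0.104 and 0.181 FPKM in 3-month wild type and 0.169, 0.241 and 0.0711 FPKM in 3-month deletion oocytes. Among the 12 GV oocyte libraries only those of 3-week wild type held Pnpla3 above 1 FPKM. Zfp109, a zinc-finger gene, was at 4.17, 3.1 and 3.2 and 9.26, 9.67 and 6.74 FPKM at 3 weeks and at 16.2, 14.5 and 16.5 FPKM in wild-type oocytes and 4.29, 4.4 and 4.84 FPKM in deletion oocytes at 3 months. The zinc-finger gene Zfp108 and the adhesion gene Ceacam20 had effects of 0.55 (a call lost in 2 of 15 alternatives) and 0.69 at 3 weeks and -0.78 and -0.60 at 3 months. Tceal8 was at 11.5, 10.1 and 15 FPKM in 3-month wild type and at 15.7, 14.9 and 10.9 FPKM in 3-month deletion oocytes, so that its wild-type level at 3 weeks was the low one. Mt1 had a smaller effect at 3 months on this scale, where it was at 0.556, 1.58 and 1.49 FPKM in wild-type oocytes and 6.84, 12.8 and 7.48 FPKM after deletion.

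**Figure D5:**
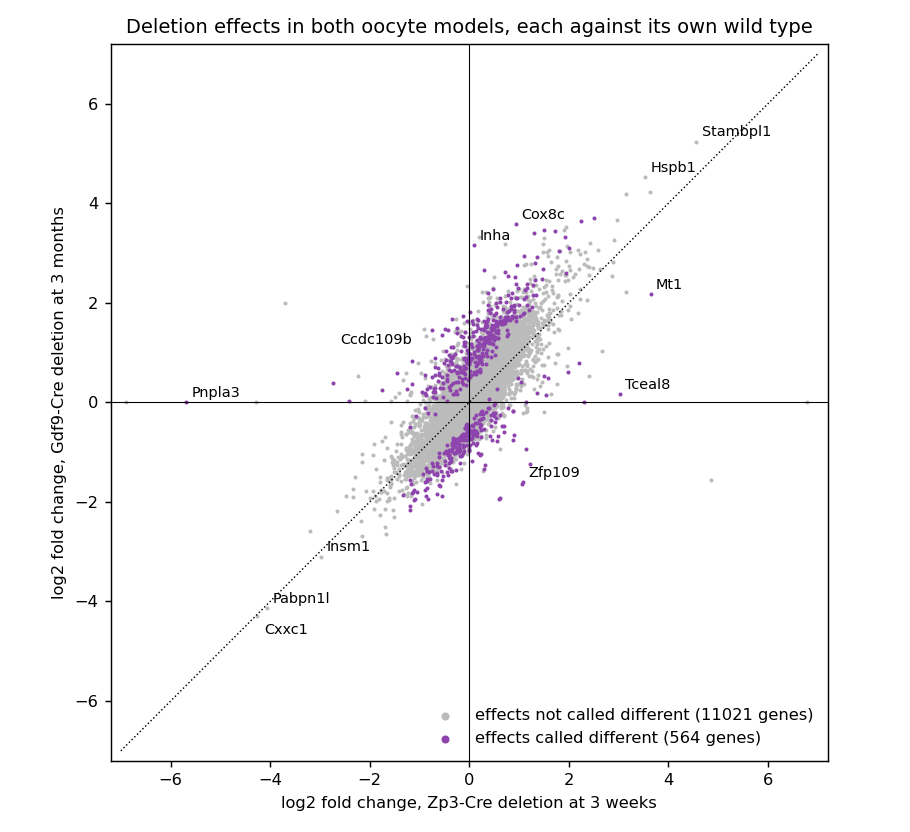
Log2 change of each member after Gdf9-Cre deletion at 3 months (vertical axis) against that after Zp3-Cre deletion at 3 weeks (horizontal axis), with the dotted line of equal effects. Purple points are the 564 genes whose effects were called different; Cxxc1 and Pabpn1l lie on the line, and Pnpla3 and Tceal8 lie near 0 at 3 months.

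Zygotes from Zp3-Cre deletion females, compared with zygotes of wild-type females, showed part of the oocyte changes. Among members 40.4% were called higher and 13.1% lower in deletion zygotes. Of the genes that rose in oocytes 1560 (65.2%, and 33.3% of those that rose in zygotes) rose there too, and of those that fell 664 (43.2%, and 43.6%) fell there too. Another 297 genes that fell in oocytes (19.3%) were higher in deletion zygotes, and 44 that rose (1.84%) were lower. These shares moved with scaling, since rises were 75.5% of the zygote calls as deposited and 40.5% after median-of-ratios scaling, where 163 genes (8.93%) fell in oocytes and rose in zygotes and 217 (14.4%) did the reverse. Insm1, Cpa1 and Oog3 stayed low, with log2 changes of -2.85, -1.85 and -2.51 in zygotes. Hoxd13, Mbp and Slc16a6 stayed high, at 2.82, 3.66 and 3.44.

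Some named genes, chosen after their values were seen, had opposite signs at the 2 stages. Cd9 was -0.71 in oocytes and 3.68 in zygotes, Zp1 -0.60 and 1.87, Npm2 -0.75 and 2.14, Mos, the kinase that holds the egg in metaphase, -0.86 and 2.99, and Hsp90b1 -1.22 and 1.80. All of these are called log2 changes against the wild type of the same stage, except that Mos lost its oocyte call in 6 of 15 alternatives. Obox1, Nlrp9b and Tdrd9 kept their sign, at -1.70, -1.27 and -0.91 in zygotes. Whether the oocyte and zygote effects of these genes differ was not tested.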

How the data were processed

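RNA-seq of bulk oocytes and embryos was analysed from the FPKM table deposited by the authors. The submitters' processing notes list CASAVA 1.4, TopHat2 2.0.12, Cufflinks 2.2.1 and SAMtools and the builds mm10 and mm9, without roles, and strand is not given in the sources used here. Values were taken to log2(FPKM + 1) from the deposited FPKM, with no further scaling. Groups follow the labels, and those fitted include the 2-cell embryos. limma 3.58.1 (R 4.3.3) fitted 8 group means to 23 libraries and 13776 genes of at least 1 FPKM in 2 libraries, with an intensity trend, 15 residual degrees of freedom and Benjamini-Hochberg adjustment over all genes; the procedure was tested on simulated data. The 3-week, 3-month and zygote effects and the difference of the oocyte effects were contrasts of this fit. Alternatives changed the pseudocount (0.1), filter, scaling, libraries fitted, shrinkage, replicate block and libraries left out. Tables were described with Python 3.11.15 and pandas 2.3.3. The table has 27 entries with names turned into dates. The bisulfite data were not analysed here.

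Members and gene lists were chosen with earlier results of these data known. Genes were named by a rule: Cxxc1, the 20 largest called rises and falls of at least 5 FPKM without overlap, the 20 most abundant transcripts, up to 4 called members per list (all members of lists of at most 15), and the 6 largest differences between models in each direction. Of these a selection is described. The following genes lie outside the rule and were chosen after their values were seen: Acaca, Ago2, Atf4, Atg16l1, Bag3, Becn1, Bmp15, Ccnb1, Cdk1, Cux2, Dicer1, Dnajb1, Eif3j1, Eif4e, Fbxw14, Fbxw18, Fbxw20, Fbxw28, Figla, Foxl2, Fshr, Gtf2b, Hsp90ab1, Hspa1l, Hspa5, Hspa8, Hspa9, Hsph1, Igf2bp2, Irgm2, Isg20, Kdm6a, Kit, Klf17, Lhx8, Manba, Mt2, Mtf1, Nfe2l2, Nlrp5, Nobox, Obox7, Ooep, Papolg, Pfkm, Pgk1, Piwil1, Pkm, Pou5f1, Pramef12, Pramef17, Pramef8, Ptx3, Sebox, Slc39a8, Smoc1, Sox2, Tdrd5, Tnfaip6, Ulk2 and Ybx2. The motif GAANNTTC was chosen likewise. The promoter description was planned over all matched members and is given for those of at least 10 FPKM, because fewer than 80% of the called sets were matched otherwise.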

Additional observations from a re-analysis of the deposited data

Results flagged for a closer look

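The deletion effect differed between the oocyte models, by the limma test of the difference over all genes (adjusted p under 0.05), for 12 named genes, with differences given as the log2 effect at 3 months with Gdf9-Cre minus that at 3 weeks with Zp3-Cre. It was higher at 3 months for Pnpla3 (5.69), Inha (3.06), Cox8c (2.65), Sepp1 (2.1), Elf3 (2.02) and Ccdc109b (1.98). It was lower at 3 months for Tceal8 (-2.86), Zfp109 (-2.68), Rbm44 (-1.64), Mt1 (-1.47), Zfp108 (-1.33) and Ceacam20 (-1.29). Cox8c, a testis form of a cytochrome oxidase subunit, was at 4.28, 8.42 and 4.78 FPKM in 3-week wild type, 7.46, 14.7 and 14.1 FPKM after deletion, 0.718, 0.676 and 0.946 FPKM in 3-month wild type and 15.7, 26 and 20.4 FPKM in 3-month deletion oocytes. Its call at 3 weeks was lost in 5 of 15 alternatives. Ccdc109b, a mitochondrial calcium channel subunit, fell at 3 weeks from 34, 36.7 and 31.6 to 13.7, 18.5 and 12.9 FPKM and rose at 3 months from 9.86, 8.02 and 8.25 to 18.9, 17.1 and 13.4 FPKM. In 10 of the 12 genes, all but Elf3 and Sepp1, wild-type oocytes of both ages were also called different, and age and Cre cannot be told apart. The same wild-type libraries entered both tests, and the share among all members is not given here, so this count is a description only.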

How the results depend on the processing

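Members called higher at 3 weeks numbered 2393 with FPKM as deposited, 1502 after median-of-ratios scaling, 3502 with the 12 GV libraries alone, 2953 with the 6 libraries alone and 1792 to 2024 without replicate 1, 2 or 3 of either group. Those called lower numbered 1537, and 1826 after median-of-ratios scaling, 1834 after quantile normalization, 2145 with the 12 GV libraries alone, 1782 with the 6 libraries alone and 1209 to 1375 without 1 replicate. Rises of at least 2-fold numbered 411, but 660 with a pseudocount of 0.1 and 259 after quantile normalization. A difference of effect between the models was higher at 3 months for 336 members, and for 159 with a pseudocount of 0.1, 140 after median-of-ratios scaling, 172 after quantile normalization, 1397 with the 12 GV libraries alone, 163 with the replicate block and 172 to 378 without 1 replicate. It was lower for 228, and for 412 after quantile normalization, 734 with the 12 GV libraries alone, 112 with the replicate block and 117 to 262 without 1 replicate. In zygotes 4683 members were higher and 1523 lower, against 2642 and 3888 after median-of-ratios scaling and 2716 and 3235 after quantile normalization. Deviations of same-numbered libraries of the 3-week groups had correlations of 0.0637, 0.0084 and -0.00393. These cannot show whether such libraries were handled together, and the labels do not say so. The replicate block gave 2261 higher and 1475 lower. Of the values of single genes and lists under an alternative, 4723 stayed the same by the rule used. Called genes among them kept call and direction. Genes not called stayed uncalled and medians moved by less than the limits below, and in either case the sign could change. Another 160 values lost a call and 70 gained one. A further 44, all medians of lists or of promoter CpG, moved by at least 0.1 on the log2 scale or by over 1 CpG. Of the called values 0 changed sign. The cause was not tested in any of these cases. FPKM holds no depth, so the counting error behind low values is unknown.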
